A study of Homo sapiens with 9 samples.

Results

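Teneurins are very large cell-surface proteins that bridge neighbouring cells by binding other teneurins or the latrophilins, which are adhesion G protein-coupled receptors. FLRT proteins, which carry leucine-rich repeats and a fibronectin domain outside the cell, bind the same latrophilins and also UNC5 receptors. All 3 families are best known from neurons, where they guide axons and help to select synaptic partners. The genes described here are 9 members of these families, namely the teneurins TENM1, TENM2, TENM3 and TENM4, the latrophilins ADGRL1, ADGRL2 and ADGRL3, and FLRT2 and FLRT3, out of 20045 gene symbols on the array. They were taken by symbol from the platform annotation, which gave them 13 probes. The set was chosen by the deposited intensity of TENM3, whose lower signal in RAI2 than in vector cells was already known. The members' values of RAI2 against vector are therefore given as a description and without p-values.

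MDA-MB231 cells, a human breast cancer line of mesenchymal and hormone receptor-negative type, were profiled on Illumina bead arrays of a single colour. The 9 arrays fell into 3 groups of 3: cells transduced with RAI2, cells transduced with a form named RAI2-4A, and cells transduced with the control vector, all by retrovirus made in φNX-ampho packaging cells and all under puromycin at 2 µg/ml for 4 days. RAI2 (retinoic acid induced 2) is a protein known to bind the CtBP corepressors, and what 4A denotes is not given in the labels. Whether replicates were separate cultures, and whether cells were cloned, is not given either, so that the p-values cover the spread among these 9 arrays alone, which may be technical. The comparisons ask what each overexpressed form did relative to vector and how the forms differed.

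The deposited values are linear intensities, and probes are called above background on the arrays where they exceed a threshold set for each array, an intensity of 99.8 to 104. Between 20030 and 22678 probes per array did so, and precision is limited by the 3 arrays per group. The RAI2 probe followed the labels, at 559 to 632 on RAI2 arrays and 955 to 1158 on RAI2-4A arrays, against 86.3 to 95.8 on vector arrays, where it was below the threshold on all 3. Of 6 genes known to be high in MDA-MB231 cells (VIM, CD44, MSN, CAV1, AXL and LGALS1), all were above background on all 9 arrays, while of 5 luminal or epithelial markers ESR1, PGR and ESRP1 were above it on 0 arrays and CDH1 and GATA3 on 8. CDH1 read 104 to 116 on RAI2 arrays, 101 to 117 on RAI2-4A arrays and 102 to 122 on vector arrays. GATA3 read 109 to 110, 131 to 139 and 102 to 134 in the same order. MSN from the first list read 6009 to 6289, 5645 to 5874 and 5631 to 6679. Of 6 neuronal markers, SNAP25 and TUBB3 were above background on all 9 arrays, MAP2 on 3, STMN2 on 2, and SYT1 and RBFOX3 on 0. Their intensities summed to 1357 to 1418 on RAI2 arrays and 1285 to 1378 on RAI2-4A arrays, against 1400 to 1674 on vector arrays. Most of each sum was TUBB3, at 841 to 937, 807 to 890 and 927 to 1202 on RAI2, RAI2-4A and vector arrays. SNAP25 read 111 to 127, 107 to 124 and 101 to 115 in the same order, and MAP2 99.2 to 102, 100 to 105 and 85.9 to 103. The sums thus describe TUBB3 more than the list. Of 3 markers of the virus-producing packaging cells, NEFM and LIN28B were above background on 0 arrays and NEFL on 4, and of 5 fibroblast and endothelial markers LUM was above it on all 9 arrays, PECAM1 on 4, DCN on 2, PDGFRA on 1 and CDH5 on 0. RAI2 replicate 2, RAI2-4A replicate 2 and vector replicate 1 deviated together from their groups. Pearson's r between their residuals across genes, which are not independent replicates, was 0.437 to 0.538. The results are therefore also given without these 3 arrays. Some other pairs of arrays from different groups were about as close, such as vector replicate 2 and RAI2-4A replicate 3 (r = 0.470).

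Of the 13 probes, 4 were above background on all 9 arrays, and these represent TENM3, ADGRL1, ADGRL2 and FLRT2. The other 9 probes were above background on at most 2 arrays, so TENM1, TENM2, TENM4, ADGRL3 and FLRT3 had no probe that entered the fit. The 4 measured genes were tested among 12438 genes with limma on background-corrected log2 intensities, and adjusted p-values are Benjamini-Hochberg values over all of them. TENM3 read lowest with RAI2, higher with RAI2-4A and highest with vector, while ADGRL1, ADGRL2 and FLRT2 overlapped between all groups.

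TENM3 encodes a teneurin that in mice mediates homophilic adhesion during the wiring of hippocampal and visual circuits. RefSeq's table for GRCh38.p14 lists a pair of start sites for it on chromosome 4, and the array carried a single TENM3 probe (ILMN_2336094), so the values below do not say from which start a transcript came. The 250 bases before each start are shown because TENM3 is the member whose level differed between the groups.
TENM3 upstream start, chr4:182143713-182143962, + strand: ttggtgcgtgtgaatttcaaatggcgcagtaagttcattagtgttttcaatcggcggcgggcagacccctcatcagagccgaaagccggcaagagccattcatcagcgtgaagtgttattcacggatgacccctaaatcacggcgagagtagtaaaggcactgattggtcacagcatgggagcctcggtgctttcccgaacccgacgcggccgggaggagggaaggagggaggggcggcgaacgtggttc
TENM3 downstream start, chr4:182448766-182449015, + strand: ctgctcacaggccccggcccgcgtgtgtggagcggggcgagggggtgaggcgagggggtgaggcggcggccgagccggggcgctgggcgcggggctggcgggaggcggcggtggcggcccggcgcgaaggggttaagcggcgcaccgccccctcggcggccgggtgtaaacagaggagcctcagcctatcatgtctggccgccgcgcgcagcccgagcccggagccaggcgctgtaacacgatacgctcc
The stretches hold 56.8% and 77.2% G or C, with 20 and 35 CpG dinucleotides, where the medians over 35116 such stretches of all genes are 58% and 11. The motif CACCTG, read as CACCTG or CAGGTG for both strands and bound by zinc finger repressors of the ZEB and SNAI families, some of which recruit CtBP, occurred in neither stretch. It occurred in 17.5% of the stretches of all genes and in 2 of the 21 that the table holds for 8 of the 9 members. Most stretches thus lack it, and binding of such repressors at TENM3 was not tested.

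On RAI2 arrays TENM3 read 222, 229 and 205, on RAI2-4A arrays 305, 337 and 326, and on vector arrays 421, 419 and 438. The 3 groups were fully apart, with RAI2 lowest, RAI2-4A between and vector highest. The mean intensities were 219 ± 12.3 in RAI2 cells, 323 ± 16.1 in RAI2-4A cells and 426 ± 10.6 in vector cells (SD, n = 3 each), so that each step in this order was larger than the spread within groups. The RAI2 mean was 0.513 of the vector mean, the RAI2-4A mean was 0.757 of the vector mean, and the RAI2 mean was 0.678 of the RAI2-4A mean. No background was subtracted for these values, on arrays with medians of 98.5 to 99.5, so they are not ratios of RNA. In these bulk samples, fewer cells with TENM3 and less TENM3 RNA per cell cannot be told apart. The overexpressed transcript itself stood in another order, with the RAI2 probe higher on RAI2-4A than on RAI2 arrays. Separation in the order RAI2, RAI2-4A, vector from low to high was seen for 10 of the 12438 tested genes, or 0.0804%. As TENM3 was chosen by its difference between RAI2 and vector, nothing is read from its place among these 10. The opposite order was seen for 25 genes, or 0.201%.

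**Figure D1:**
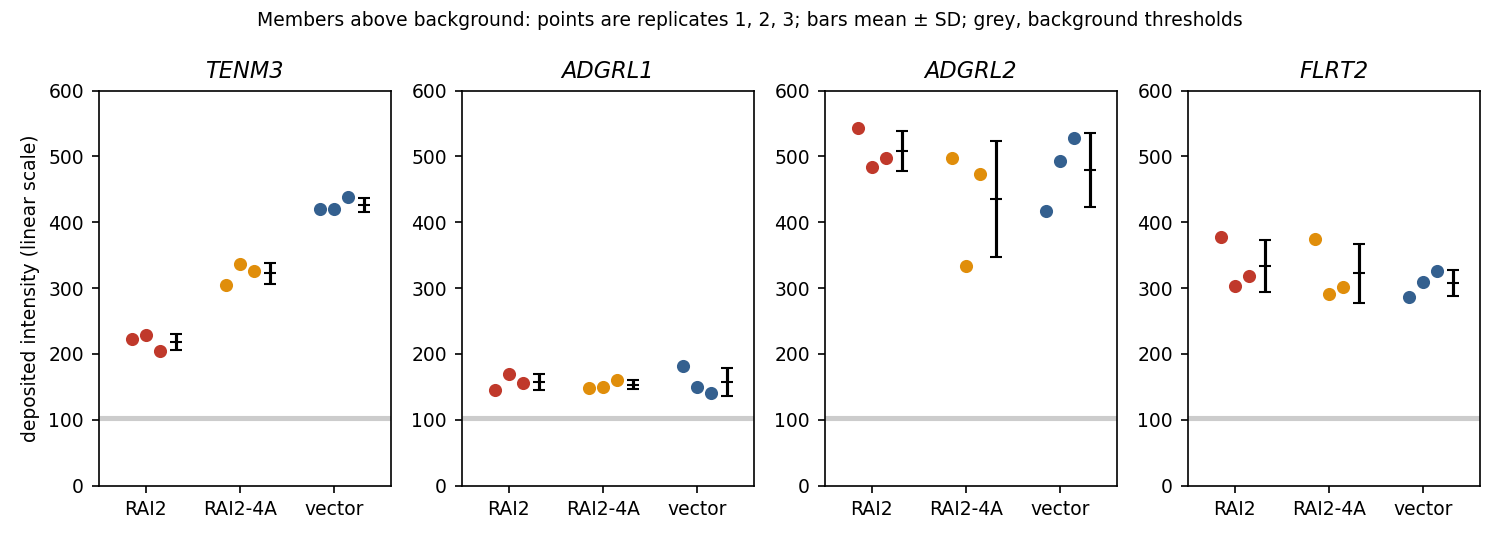
Deposited intensity (linear scale, from 0) of the 4 members above background on all arrays, by group; points are replicates 1, 2 and 3 from left to right, the bar beside them is the mean ± SD (n = 3), and the grey band spans the background thresholds of the 9 arrays. TENM3 lies at 205 to 229 in RAI2 cells, 305 to 337 in RAI2-4A cells and 419 to 438 in vector cells, while the groups of ADGRL1, ADGRL2 and FLRT2 overlap.

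In the RAI2 against vector comparison, the fitted log2 difference of TENM3 was -1.05 (SE 0.10). It was -1.10 without the 3 arrays that deviated together, and ran from -1.09 to -0.995 with each single array left out. The members past an adjusted p of 0.05 were 1 of the 4 measured, TENM3, as its choice had already fixed, so nothing is read from this count. Of all tested genes 0.418% were past it, 0.0965% with a lower level in RAI2, and the RAI2 arrays lay below the vector arrays without overlap for 3.81%.

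RAI2 against vector was taken as the comparison that chose the gene, and whether the others entered the choice is not known. The RAI2-4A against vector comparison uses the same vector arrays, so it is not independent of that choice. The log2 difference of TENM3 was -0.43 (SE 0.10, 95% interval -0.65 to -0.22), and it did not pass the threshold over all genes (limma, adjusted p = 0.317). All 3 RAI2-4A arrays lay below all 3 vector arrays, as they did for 3.13% of tested genes. The number of measured members that passed was 0 of 4 in limma, where 0.0884% of tested genes passed and 0.0241% passed with a lower level in RAI2-4A. At an unadjusted threshold of 0.05 it was 1, again TENM3, where 4% of tested genes passed. Without the 3 arrays that deviated together the difference was -0.47 (limma, adjusted p = 0.277), and over all alternatives the adjusted p ran from 0.277 to 0.999.

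Between the forms, TENM3 was lower in RAI2 than in RAI2-4A cells by a log2 difference of -0.62 (SE 0.10, 95% interval -0.83 to -0.40), which passed over all genes (limma, adjusted p = 0.0126). This comparison shares its RAI2 arrays with the one taken to have chosen the gene, so it is not independent of that choice. TENM3 was 1 of the 4 measured members called, where 0.378% of tested genes were called and 0.185% were called with a lower level in RAI2. The 47 genes called became 98 with the replicate number as a block over these groups alone. All 3 RAI2 arrays lay below all 3 RAI2-4A arrays, as they did for 5.51% of tested genes. The call was lost in limma without RAI2 replicate 1 (adjusted p = 0.0598), RAI2 replicate 3 (adjusted p = 0.110), RAI2-4A replicate 2 (adjusted p = 0.0738) or RAI2-4A replicate 3 (adjusted p = 0.0771), with differences between -0.63 and -0.56. It stood without the 3 arrays that deviated together, at -0.62 (limma, adjusted p = 0.0350), and over all alternatives the adjusted p ran from 0.00752 to 0.110.

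**Figure D2:**
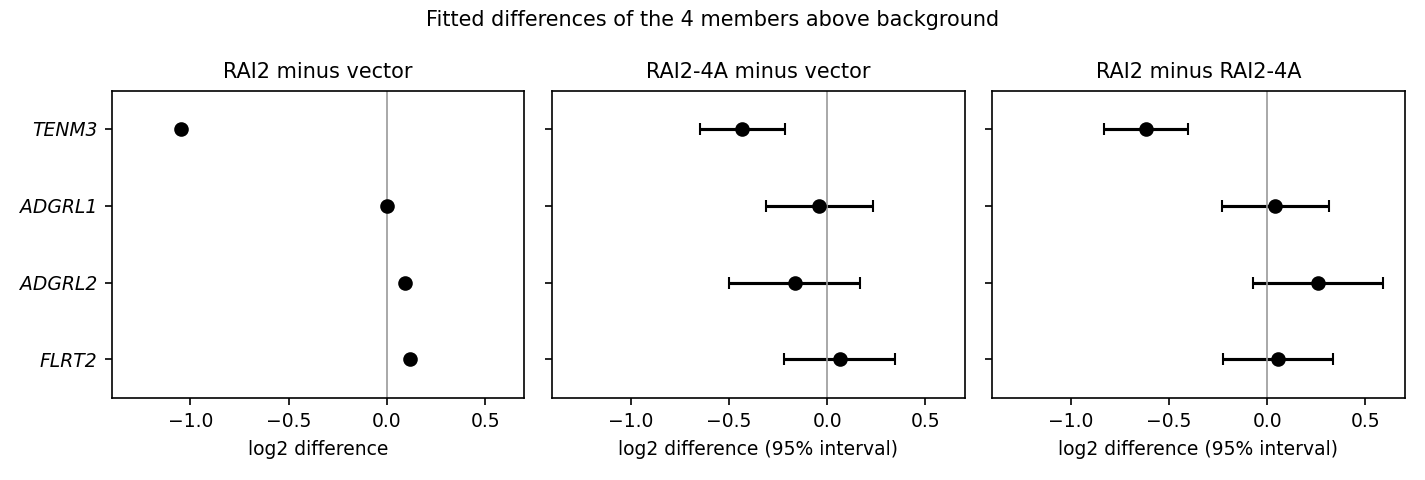
Fitted log2 differences from limma for the 4 members above background, in the 3 comparisons, with 95% intervals except for RAI2 minus vector. That comparison has points alone and is a description, since it was taken as the one that chose TENM3. The vertical line marks 0. The intervals of TENM3, at -0.43 for RAI2-4A minus vector and -0.62 for RAI2 minus RAI2-4A, lie below 0, and those of ADGRL1, ADGRL2 and FLRT2 include 0. Both comparisons share arrays with the one taken to have chosen TENM3, so its intervals are not independent of that choice.

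The other teneurins read at or near background in all groups. TENM1, the X-linked family member, had a probe that read 80.0 to 99.8 and lay above background on 0 arrays. Its second probe read 86.9, 93.8 and 108 on RAI2 arrays, 93.3, 95.8 and 96.0 on RAI2-4A arrays, and 103, 98.9 and 90.0 on vector arrays, and was above the threshold on 1 RAI2 and 1 vector array. TENM2, a high-affinity ligand of latrophilins, read 81.7 to 95.1, and TENM4, which in mice is needed for the myelination of small axons, read 83.5 to 99.5. Both lay above background on 0 of 9 arrays, and no difference between groups can be given for genes whose probes were below background throughout.

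Among the latrophilins, ADGRL2 and ADGRL1 were measured. ADGRL2, found in mice at hippocampal synapses, read 543, 484 and 498 on RAI2 arrays, 497, 334 and 474 on RAI2-4A arrays, and 417, 492 and 528 on vector arrays. RAI2-4A replicate 2 was lowest, and the groups overlapped. The means were 508 ± 30.9 in RAI2 cells, 435 ± 88.3 in RAI2-4A cells and 479 ± 56.7 in vector cells (SD, n = 3 each). The log2 difference of RAI2-4A from vector was -0.17 (SE 0.15, 95% interval -0.50 to 0.17; limma, adjusted p = 0.994), and without the 3 arrays that deviated together it was -0.08. RAI2 minus RAI2-4A was 0.26 (SE 0.15, 95% interval -0.07 to 0.59; limma, adjusted p = 1.00), 0.10 without those arrays, 0.068 without RAI2-4A replicate 2 alone and 0.37 without RAI2-4A replicate 1 alone. RAI2 minus vector was 0.09 (SE 0.15), given as a description.

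ADGRL1, a receptor of the spider toxin alpha-latrotoxin, had 1 probe above background (ILMN_1813175). It read 145, 170 and 156 on RAI2 arrays, 149, 150 and 161 on RAI2-4A arrays, and 181, 150 and 141 on vector arrays, the group ranges lying inside one another. The means were 157 ± 12.4 in RAI2 cells, 153 ± 6.78 in RAI2-4A cells and 157 ± 21.4 in vector cells (SD, n = 3 each). The log2 difference was -0.04 for RAI2-4A minus vector (SE 0.13, 95% interval -0.31 to 0.23; limma, adjusted p = 0.994) and 0.04 for RAI2 minus RAI2-4A (SE 0.13, 95% interval -0.23 to 0.31; limma, adjusted p = 1.00). Both changed sign without the 3 arrays that deviated together, to 0.11 and -0.048. RAI2 minus vector was 0.00 (SE 0.13). The second ADGRL1 probe read 80.5 to 106 and was above background on 1 array, RAI2-4A replicate 1.

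ADGRL3, a latrophilin that binds FLRT3, had a pair of probes, both above background on 0 arrays. One of them (ILMN_1711807) read 74.8, 73.7 and 79.3 on RAI2 arrays, 87.1, 84.8 and 87.5 on RAI2-4A arrays, and 88.1, 90.8 and 90.0 on vector arrays. These groups were apart in the same order as those of TENM3, but below the background thresholds, so no fold is given. The other (ILMN_1692623) read 93.8, 90.2 and 90.6 on RAI2 arrays, 93.8, 92.9 and 93.3 on RAI2-4A arrays, and 91.6, 82.8 and 87.2 on vector arrays, with RAI2 not lower than vector. The order seen with the first probe was thus not seen with the second.

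FLRT2, which in mice acts as a guidance cue for neurons, read 378, 303 and 319 on RAI2 arrays, 374, 291 and 301 on RAI2-4A arrays, and 287, 309 and 326 on vector arrays. Replicate 1 was highest in both overexpressing groups, and all groups overlapped. The means were 333 ± 39.5 in RAI2 cells, 322 ± 45.2 in RAI2-4A cells and 307 ± 19.8 in vector cells (SD, n = 3 each). The log2 difference was 0.06 for RAI2-4A minus vector (SE 0.13, 95% interval -0.22 to 0.34; limma, adjusted p = 0.994) and 0.05 for RAI2 minus RAI2-4A (SE 0.13, 95% interval -0.23 to 0.34; limma, adjusted p = 1.00). RAI2 minus vector was 0.12 (SE 0.13), with 0.018 without RAI2 replicate 1 and 0.19 without RAI2 replicate 2. Without the 3 arrays that deviated together the 3 values were 0.09, 0.05 and 0.14. FLRT3, a ligand of both ADGRL3 and UNC5 receptors, read 81.1 to 91.3 on one probe and 77.3 to 103 on the other, above background on 0 arrays.

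**Figure D3:**
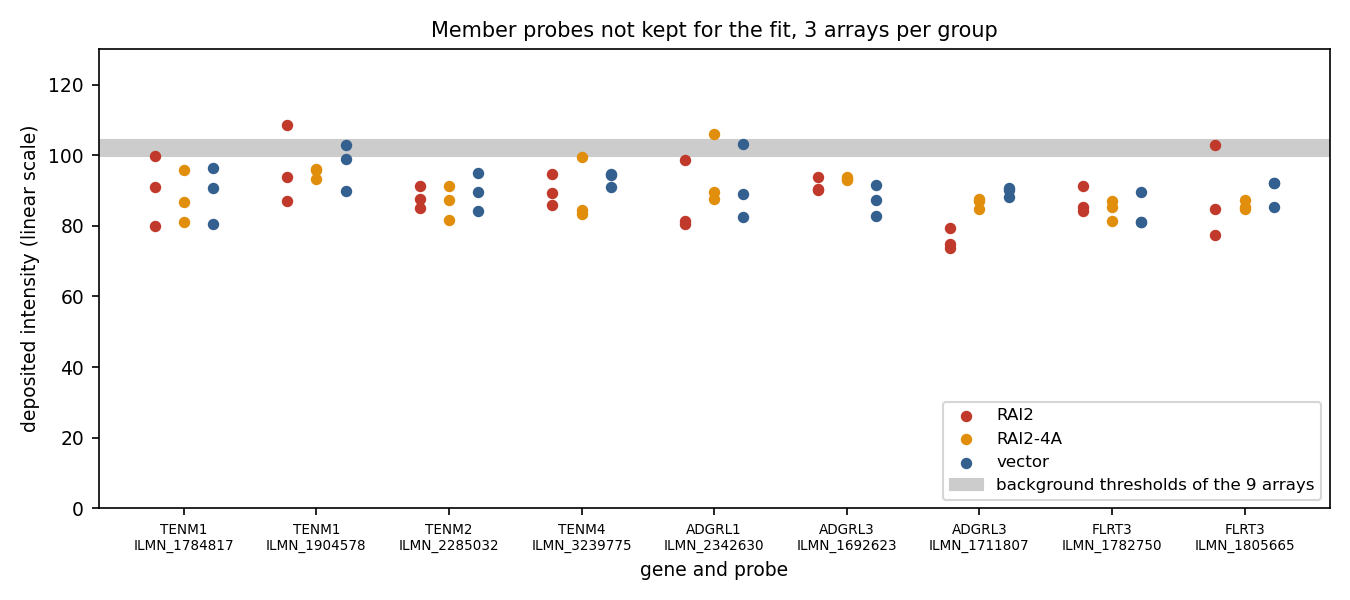
Deposited intensity (linear scale, from 0) of the 9 member probes that did not enter the fit, with 3 arrays per group; the grey band spans the background thresholds of the 9 arrays, and each array has its own threshold. All values lie between 73.7 and 108, and 3 of the 81 points are above their own array's threshold.

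ADGRL2 and FLRT2 shared a pattern within the groups that TENM3 lacked. In each group both were lowest on the array that deviated, at 484 for ADGRL2 on RAI2 replicate 2, against a mean of 520 on the remaining RAI2 arrays, at 334 on RAI2-4A replicate 2, against 485, and at 417 on vector replicate 1, against 510. FLRT2 read 303, 291 and 287 on these arrays, against means of 348, 338 and 318 on the others of each group. TENM3 was lowest on none of the 3, with 229, 337 and 421, against 213, 316 and 429. This comparison was chosen after the values were seen, and the part of the deviation in these genes was not tested.

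The 4 measured members had median log2 differences of 0.05 for RAI2 minus vector, -0.10 for RAI2-4A minus vector and 0.05 for RAI2 minus RAI2-4A, where the medians over all tested genes were 0.02, 0.02 and 0.00. Of 22 genes for other partners of these proteins (the remaining FLRT1 and ADGRL4, UNC5 receptors and netrin, neurexins, SHANK scaffolds, FGF receptors and others), 18 had a probe and 5 were bright enough to be tested. In limma 0 of the 5 passed in each of the 3 comparisons. At an unadjusted threshold of 0.05 there was 1 in RAI2 minus vector, where 5.9% of tested genes passed, and 0 in RAI2-4A minus vector. There was also 1 in RAI2 minus RAI2-4A, where 4.82% passed. Both were UNC5C, which was below background on all 3 RAI2 arrays, so the size of its difference cannot be given. UNC5C, a netrin receptor, read 84.1 to 91.1 on RAI2 arrays and 93.3 to 115 on RAI2-4A arrays, against 98.99 to 113 on vector arrays, and was above background on 3 of 9 arrays. MBD1, a methyl-CpG-binding protein reported to bind the intracellular part of TENM1, read 117 to 153 on RAI2 arrays and 102 to 162 on RAI2-4A arrays, against 118 to 220 on vector arrays. Within each group it was highest on the array that deviated, at 153, 162 and 220, and its difference of RAI2-4A from vector was -0.34 (SE 0.26; limma, adjusted p = 0.994). SHANK2, a scaffold that binds latrophilin tails, differed by -0.06 and the FGF receptor FGFR1, a partner of FLRT proteins, by -0.03 in the same comparison, both with an adjusted p = 0.994 in limma. FLRT1 and ADGRL4 were above background on 0 arrays.

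The genes most like TENM3 over the 9 arrays were sought by Pearson's r of log2 values among 9920 genes above background on all arrays, as a description; the 9 points share the 3 groups and no p is given. The 5 highest were NRG1, a ligand of ERBB receptors (r = 0.949), the long noncoding RNA MANCR (r = 0.928), the complement regulator subunit C4BPB (r = 0.918), the leukocyte integrin subunit ITGB2 (r = 0.899) and the endocytic adaptor DAB2 (r = 0.898). NRG1 averaged 665 ± 8.32 in RAI2 cells, 774 ± 43.9 in RAI2-4A cells and 902 ± 53.7 in vector cells (SD, n = 3 each). MANCR averaged 1368 ± 45.7 in RAI2 cells, 1553 ± 64.1 in RAI2-4A cells and 1921 ± 30.6 in vector cells (SD, n = 3 each). Their log2 differences for RAI2 minus vector were -0.45 and -0.50, where that of TENM3 was -1.05. C4BPB averaged 1636 ± 129 in RAI2 cells, 2357 ± 140 in RAI2-4A cells and 2864 ± 548 in vector cells (SD, n = 3 each), with a wide spread among vector arrays.

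The strongest opposite pattern was that of the antimicrobial peptide gene DEFB103A (r = -0.985), which averaged 1334 ± 267 in RAI2 cells, 385 ± 63.3 in RAI2-4A cells and 201 ± 15.02 in vector cells (SD, n = 3 each). RTKN (r = -0.953) and the matrix protein gene TGFBI (r = -0.939) followed. RTKN averaged 379 ± 40.0 in RAI2 cells, 304 ± 8.04 in RAI2-4A cells and 262 ± 18.1 in vector cells (SD, n = 3 each). TGFBI averaged 835 ± 104 in RAI2 cells, 540 ± 123 in RAI2-4A cells and 338 ± 27.8 in vector cells (SD, n = 3 each). DEFB103A has a near-identical copy, DEFB103B, which the probe may not separate from it.

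**Figure D4:**
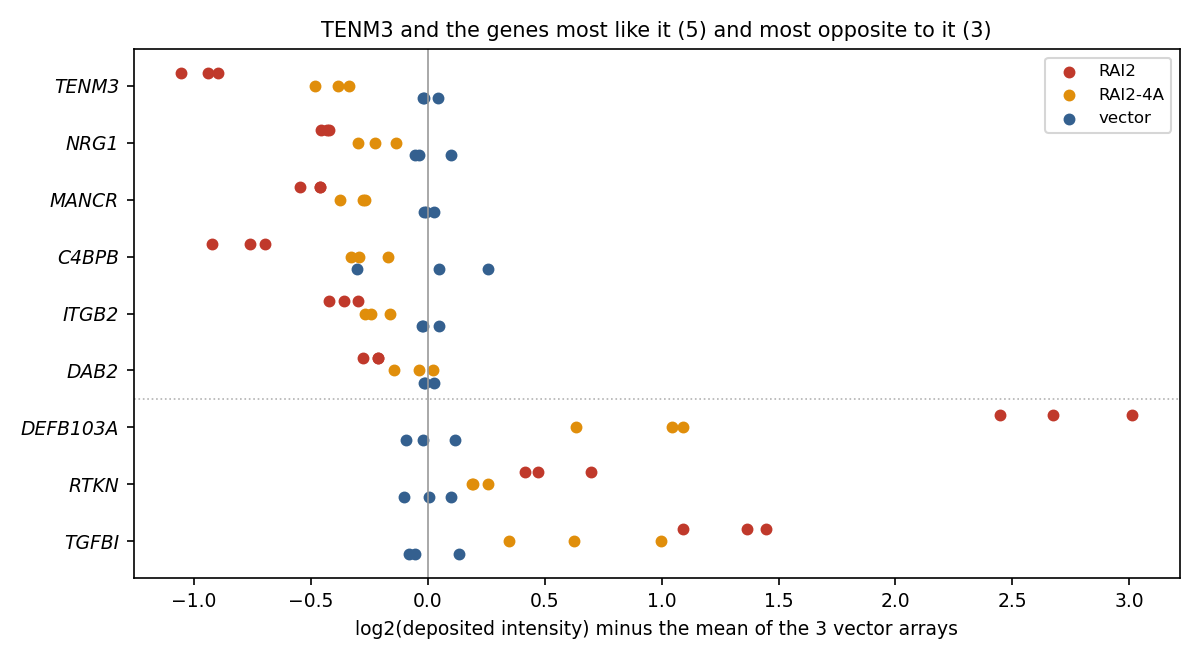
Log2 of the deposited intensity minus the mean of the 3 vector arrays, for TENM3, the 5 genes most like it and, under the dotted line, the 3 most opposite to it; each point is an array, coloured by group. RAI2-4A points lie between RAI2 and vector for TENM3, as for NRG1 (r = 0.949), MANCR (r = 0.928) and, in the other direction, DEFB103A (r = -0.985).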

How the data were processed

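Biotin-labelled cRNA from 500 ng of total RNA was hybridised, per the labels' protocols. BeadStudio and limma are named in the submitters' processing notes. The value table deposited by the authors holds linear intensities for 47323 probes, with array medians of 98.5 to 99.5. They were therefore treated as normalized, although how is not given in the sources used here. Another 18 deposited columns could be tied to no sample and were not used, so detection p-values were replaced by the threshold below. The 3 probes lacking a value were dropped. The normexp model of limma (saddle-point fit, offset of 50) corrected the background of each array before log2 values were taken. Above background means over 1.64 SD above the mode of the array's log2 intensities, the SD being taken below the mode. Probes above it on at least 3 of 9 arrays were kept, with the brightest kept probe per gene, 12438 genes in all. A linear model over all 9 arrays (6 residual degrees of freedom) was fitted with limma 3.58.1 in R 4.3.3 and tested on simulated data. Alternatives varied the filter, the probe rule, the variance model, the background and scaling steps, the arrays fitted and the replicate block. The alternative with the background at the mode of each array used an offset of 16 instead of 50. The intensity thresholds set the precision for dim probes.

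The members and lists were chosen with earlier results of these data known. The genes named are all members, the partner genes past the threshold or otherwise the 4 with the lowest p in RAI2-4A minus vector, and the 5 genes most like and 3 most opposite to TENM3. RAI2 and RAI2-4A arrays of the same number tended to deviate the same way from their groups (r of residuals across genes 0.444, 0.437 and 0.230), while those of same-numbered vector arrays with either group ran from -0.434 to 0.197. This pairing is read from the data, not from the labels. Gene symbols are those of the platform annotation, and upstream sequences are from RefSeq (GRCh38.p14).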

Additional observations from a re-analysis of the deposited data

Results flagged for a closer look

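TENM3 was flagged for its difference between the overexpressed forms. RAI2 minus RAI2-4A was -0.62 on the log2 scale (SE 0.10, limma, adjusted p = 0.0126, 0.00752 to 0.110 over the alternatives). All 3 RAI2 arrays lay below all 3 RAI2-4A arrays, as they did for 5.51% of tested genes. The call was lost without RAI2 replicate 1 or 3, or without RAI2-4A replicate 2 or 3. The RAI2 arrays also entered the comparison taken to have chosen the gene, so this p is not independent of that choice.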

How the results depend on the processing

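The log2 differences of TENM3 kept their sign under the 22 alternatives run for RAI2 minus RAI2-4A and the 21 run for the comparisons with vector. In many of these the difference could not move. The filter, the probe rule, the variance model, the replicate block and a fit of the compared groups alone left it at the main value. So did leaving out an array of the group not compared. One alternative put the background at the mode of each array and also used an offset of 16, smaller than in the main fit. The differences of TENM3 were then -1.29 (RAI2 minus vector), -0.51 (RAI2-4A minus vector) and -0.78 (RAI2 minus RAI2-4A). Background and offset changed together there, so the part of each was not tested. With no background correction the differences were -0.96, -0.40 and -0.56 in the same order. ADGRL1, ADGRL2 and FLRT2 passed the threshold in none of the alternatives (lowest adjusted p in limma 0.467) and changed sign 12 times out of 192. The 192 include the alternatives that left a difference at its main value, which could not change its sign. Without the 3 arrays that deviated together ADGRL1 read 0.11 for RAI2-4A minus vector and -0.048 for RAI2 minus RAI2-4A. With single arrays left out, RAI2 minus vector ran from -0.087 to 0.13 for ADGRL1, from -0.0075 to 0.17 for ADGRL2, and from 0.018 to 0.19 for FLRT2. RAI2-4A minus vector ran from -0.13 to 0.088 for ADGRL1, from -0.28 to 0.025 for ADGRL2 and from -0.056 to 0.14 for FLRT2. RAI2 minus RAI2-4A ran from -0.029 to 0.11 for ADGRL1, from 0.068 to 0.37 for ADGRL2 and from -0.046 to 0.17 for FLRT2.

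The number of members called for RAI2 minus RAI2-4A ran from 0 to 1 with single arrays left out. The number of genes called for RAI2 minus vector, 52, was 33 with a gene's probes averaged, 34 with probes tested one by one, and 21 to 56 with single arrays left out (21 without RAI2 replicate 1 or 2, 26 without RAI2 replicate 3, 27 without vector replicate 3). That for RAI2-4A minus vector, 11, was 7 with probes above background on all 9 arrays, 7 in a fit of these groups alone, 17 with trend and robust variance, 17 without the 3 arrays and 5 to 11 with single arrays left out (5 without vector replicate 3, 6 without RAI2-4A replicate 1, 7 without vector replicate 2). That for RAI2 minus RAI2-4A, 47, was 30 to 77 with single arrays left out (30 without RAI2 replicate 1, 31 without RAI2 replicate 3, 77 without vector replicate 1) and 98 with a replicate block in a fit of those groups, an alternative added after seeing the data. With the replicate block over all groups the numbers of genes called were 38, 9 and 38, the adjusted p of TENM3 for RAI2 minus RAI2-4A was 0.0417 in limma, and no call of a member changed; vector replicate 1 did not correlate best with arrays of its own number. The causes of these changes were not tested. A block for the slide could not be run, as neither labels nor headers name one. Differences at or below background cannot be measured with these arrays.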

Other observations

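Besides TENM3, the genes whose groups were fully apart with RAI2 lowest and vector highest were MANCR, NRG1, TMEM156, H3C10, ITGB2, SPRY1, SLC5A10, CCNJL and CWC27, 10 of 12438 in all. SPRY1, a feedback inhibitor of receptor tyrosine kinase signalling, had log2 differences of -0.37 for RAI2 minus vector and -0.22 for RAI2-4A minus vector, and the integrin subunit ITGB2 of -0.37 and -0.23. The opposite order, with RAI2 highest and vector lowest, was held by 25 genes, or 0.201%. These genes were picked by their order after their values were seen, and no test is given.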
